A study of Homo sapiens with 3 samples.

Results

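The miR-181 family was described in small RNA libraries from MV4-11 cells. Its members were chosen by name. They were the 6 hairpins hsa-mir-181a-1, hsa-mir-181a-2, hsa-mir-181b-1, hsa-mir-181b-2, hsa-mir-181c and hsa-mir-181d, of 661 hairpins listed, and every miR-181 arm in the table of mature miRNAs. That table listed 8 miR-181 names out of 783. MV4-11 is an established human line of acute myeloid leukemia, with an MLL-AF4 fusion and an internal tandem duplication of the receptor gene FLT3. All 3 libraries, replicates 1 to 3, came from MV4-11 cells that received an empty lentiviral CRISPR-Cas9 vector and were then cultured for 2 weeks before total RNA was taken. The genotype is labelled WT and the vector carried no guide, so there is 1 group and no treated or control group to set against it. Nothing says that the replicates were separate cultures, so p-values measure only the spread between these libraries, which may be technical.

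A miRNA is cut from a hairpin in a longer transcript, and either side of the hairpin can give a mature strand, the 5p arm or the 3p arm. The mature strand guides Argonaute to messenger RNAs that pair with its seed, bases 2 to 8 counted from the 5′ end. The miR-181 hairpins lie in pairs, an a with a b copy on 2 chromosomes and c with d on another. The family is known in blood for its part in lymphocyte development and in the sensitivity of T cell receptor signalling, and it has been studied widely in acute myeloid leukemia.

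The mature sequences are shown because they set which reads can be told apart. They are from RefSeq (GRCh38.p14), read 5′ to 3′, with the seed in capitals. The 5p arms come first.
miR-181a-5p: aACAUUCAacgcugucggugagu
miR-181b-5p: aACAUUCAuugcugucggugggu
miR-181c-5p: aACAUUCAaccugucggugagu
miR-181d-5p: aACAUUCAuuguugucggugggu
miR-181a-3p: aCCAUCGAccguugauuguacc
miR-181a-2-3p: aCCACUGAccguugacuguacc
miR-181b-3p: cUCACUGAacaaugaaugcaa
miR-181c-3p: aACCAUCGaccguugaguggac

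The 4 5p arms had 1 seed, ACAUUCA, and no other listed name with a RefSeq sequence had it. A sequence was matched for 679 of the 783 names. Positions in this paragraph are counted from 1 at the 5′ end, and the first-named arm gives the first base. miR-181a-5p and miR-181b-5p differed by A9U, C10U and A21G, all outside the seed. miR-181b-5p and miR-181d-5p differed by C12U alone. miR-181c-5p was miR-181a-5p without the base at position 11. The 3p arms were less alike, and the 4 listed had 4 different seeds. miR-181a-3p, from hsa-mir-181a-1, and miR-181a-2-3p, from hsa-mir-181a-2, differed by U5C, C6U and U16C, and the first 2 of these fell in the seed. miR-181c-3p began 1 base earlier than miR-181a-3p, and from its base 2 it ran identical to it for 15 bases. The seed of miR-181b-3p was shared with 1 listed name outside the family, miR-4420.

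In RefSeq on GRCh38.p14, hsa-mir-181a-1 was at chr1:198859044-198859153 and hsa-mir-181b-1 at chr1:198858873-198858982, both on the minus strand within the span of the host gene MIR181A1HG and outside its exons, with 61 bases between them. hsa-mir-181a-2 was at chr9:124692442-124692551 and hsa-mir-181b-2 at chr9:124693710-124693798, 1158 bases apart on the plus strand. Both were within MIR181A2HG and outside its exons, with NR6A1 on the opposite strand. hsa-mir-181c at chr19:13874699-13874808 and hsa-mir-181d at chr19:13874875-13875011 were 66 bases apart on the plus strand, within the span of NANOS3 and outside its exons. The deposited tables hold no coordinates, and the submitters' notes name an older human build.

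The libraries held 10991953 to 12694823 counts over the mature rows. All 6 white blood cell miRNAs chosen as markers were listed, and their summed level was 275917 to 455635 CPM, which is counts scaled to a common library total. Of 11 markers of other tissues 9 were listed, at a summed 7810 to 9801 CPM. The highest of these was miR-9-5p, chosen as a marker of neural tissue, at 340814 FPKM. With the rows of each name summed, this was above every miR-181 arm, and the order with rows averaged was not computed. Its source in these libraries was not tested. miR-1-3p and miR-205-5p had no row under those names. A row named miR-1, with no arm given, was listed and is not in this sum. miR-21-5p was the highest of the 6 white blood cell markers and made up a large part of their sum. In replicates 1, 2 and 3 it took 38.5%, 26.8% and 20.2% of the mature counts, so the rest of each library shared what was left. The median of all names on the FPKM scale was 0.48 higher in replicate 2 and 0.57 higher in replicate 3 than in replicate 1, as a log2 ratio.

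miR-181a-5p was the most abundant arm of the family. It had 54958, 62969 and 63152 counts in replicates 1, 2 and 3, and its level was 234247 ± 33300.7 FPKM (SD, n = 3), rank 36 of the 783 names. FPKM is a count divided by the feature's length and the library's total. miR-181b-5p followed with 20085, 28216 and 34726 counts and 107881 ± 32493.8 FPKM (SD, n = 3), rank 50. Replicate 1 was lowest for both arms. The levels and ranks of both arms sum 2 rows of the name, and a read counted at both copies would enter them again. Ranks with the rows averaged were not computed.

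The 3p arms of the a hairpins were next. miR-181a-3p had 8526, 8426 and 8840 counts, or 34831.9 ± 2485.29 FPKM (SD, n = 3), rank 85. miR-181a-2-3p had 2709, 2057 and 2245 counts, or 9405.99 ± 663.502 FPKM (SD, n = 3), rank 139. It was the only listed arm of the family with a higher FPKM in replicate 1 than in replicates 2 and 3. miR-181b-3p had 402, 628 and 879 counts, rank 218, and a coefficient of variation of 40.0% in CPM, the widest of the family on that scale. With median-of-ratios scaling it was 23.4%, and miR-181a-2-3p was the widest at 29.3%. With TMM scaling the same 2 arms were at 20.8% and 32.0%.

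The arms of the chromosome 19 hairpins were the lowest. miR-181d-5p had 155, 186 and 220 counts, or 726.56 ± 154.893 FPKM (SD, n = 3), rank 313. miR-181c-3p had 38, 64 and 62 counts at rank 416, and miR-181c-5p had 9, 15 and 14 counts at rank 655. At these counts a Wilson 95% interval for miR-181c-5p ran from 0.373 to 1.35 CPM in replicate 1, which covers counting error only. Together the miR-181c and miR-181d arms were 0.253% ± 0.0187 of the family's counts (SD, n = 3). The counts of miR-181d-5p were 0.772%, 0.659% and 0.634% of those of miR-181b-5p, from which it differs at 1 base, and the counts of miR-181c-5p were 0.0164%, 0.0238% and 0.0222% of those of miR-181a-5p. How many reads of the abundant arms carry a sequencing error that matches the rare arm was not tested.

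**Figure D1:**
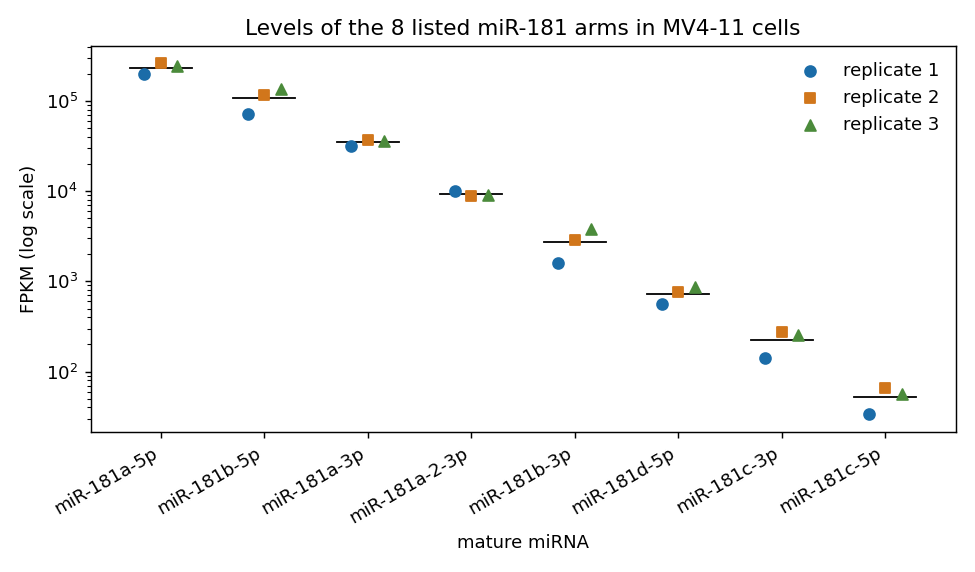
FPKM of the 8 listed miR-181 arms on a log scale, with 1 point per replicate and a line at the mean. The arms run from miR-181a-5p at a mean of 234247 FPKM down to miR-181c-5p at 51.9 FPKM, and no 2 neighbours change order in any replicate.

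The order of the 8 levels was the same in 3 of 3 replicates. Each neighbouring pair differed by more than the larger of their SDs, by 1.83 times it for miR-181b-3p over miR-181d-5p and by 10.2 times it for miR-181a-3p over miR-181a-2-3p. The ligation step of small RNA libraries favours some end sequences, so levels of different miRNAs are not molar ratios. The names nearest to miR-181a-5p in log2(FPKM + 1) over the 3 libraries were miR-1307-3p at a distance of 0.29, miR-140-3p at 0.47 and miR-142-5p, a miRNA of blood cells, at 0.67. These distances use the summed rows of miR-181a-5p and were not computed with the rows averaged.

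The family took 0.684%, 0.933% and 0.943% of the mature counts in replicates 1, 2 and 3, a mean of 0.853% ± 0.146 (SD, n = 3). Replicate 1 was low and the other two were close together. These shares sum the 2 rows of miR-181a-5p and of miR-181b-5p, and a read counted at both copies would enter them again. With the rows of each name averaged the family's mean share was 0.530%. Of the counts other than miR-21-5p the family took 1.11%, 1.28% and 1.18%, and replicate 1 was still the lowest but nearer to the others. The families set beside it were miR-30 at 5.62% ± 0.685, miR-29 at 0.226% ± 0.0831 and miR-15/16 at 0.799% ± 0.395 (SD, n = 3 each). With rows summed, the miR-181 and miR-15/16 shares differed by less than the SD of either.

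Within the family miR-181a-5p took 63.3%, 61.4% and 57.3% of the counts, and miR-181b-5p took 23.1%, 27.5% and 31.5%. The ratio of miR-181a-5p to miR-181b-5p in FPKM was 2.74, 2.23 and 1.82. The ratio of miR-181a-3p to miR-181b-3p, which come from neighbouring hairpins on chromosome 1, was 20.2, 12.8 and 9.58. Replicate 1 was highest and replicate 3 lowest in both. As a group the 5p arms held 0.755% ± 0.140 of the mature counts and the 3p arms 0.0989% ± 0.0060 (SD, n = 3). With rows summed, the shared seed of the 5p arms was rank 20 of 580 seeds, and the seed of miR-181a-3p, CCAUCGA, was rank 56.

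Against replicate 1, and relative to the median of all names, miR-181a-5p was at -0.08 in replicate 2 and -0.25 in replicate 3 as a log2 ratio. miR-181a-3p was at -0.29 and -0.40, and miR-181a-2-3p at -0.67 and -0.72, so the 3 miR-181a arms were below the median of all names. miR-181b-5p was at 0.22 and 0.34, and miR-181b-3p at 0.37 and 0.68, so both miR-181b arms were above it. Both miR-181c arms were above it too, miR-181c-3p at 0.48 and 0.26 and miR-181c-5p at 0.46 and 0.19. miR-181d-5p was close to the median, at -0.01 and 0.05. With 3 libraries in 1 group these values are a description. Scaling by median-of-ratios size factors brought the coefficient of variation of the family sum from 17.2% to 3.60%, and TMM scaling brought it to 6.18%.

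The hairpin table gave hsa-mir-181a-1 36044, 40089 and 40490 counts, and hsa-mir-181a-2 30180, 33400 and 33783. It gave hsa-mir-181b-1 9825, 13383 and 16466 counts, and hsa-mir-181b-2 10722, 15548 and 19219. hsa-mir-181c had 47, 79 and 76 counts and hsa-mir-181d 156, 188 and 223. By mean FPKM the a and b hairpins were at ranks 52 to 93 of the 661, while hsa-mir-181d was at rank 290 and hsa-mir-181c at rank 357.

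By place, the chromosome 1 pair held 52.2% ± 0.545 of the family's hairpin counts, the chromosome 9 pair 47.6% ± 0.526 and the chromosome 19 pair 0.255% ± 0.0194 (SD, n = 3 each). The first 2 of these shares rest on reads that do not tell the copies apart. The sequence of miR-181a-5p lies in both a hairpins, and both hairpins are identical over 28 bases around it, 1 before the arm and 4 after. Whether the authors counted such a read once, at a copy drawn at random, or at each copy is not given in the sources used here.

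**Figure D2:**
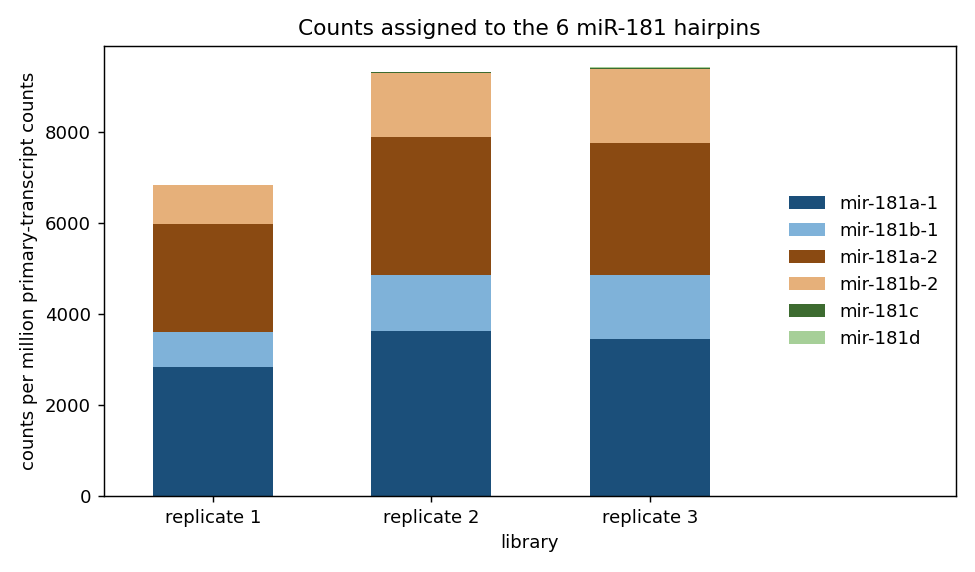
Counts of the 6 miR-181 hairpins scaled to the library's total of primary-transcript counts (CPM), stacked in 1 bar per replicate. The bars of hsa-mir-181c and hsa-mir-181d are too thin to see, and the chromosome 1 pair makes up 52.7%, 52.1% and 51.7% of the family in replicates 1, 2 and 3.

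Reads that do differ between copies gave another split. Of the 3p counts of the a hairpins, miR-181a-3p from chromosome 1 took 75.9%, 80.4% and 79.7%. That was a ratio to miR-181a-2-3p of 3.15, 4.10 and 3.94, and the share was above an even split in every replicate. In edgeR's quasi-likelihood test the log2 ratio was 1.89 ± 0.23 (SE, n = 3), with a Benjamini-Hochberg adjusted p of 5.59e-04. Of all such copy pairs 62.5% were called (5 of 8), with called meaning an adjusted p under 0.05 and a log2 ratio of at least 1 in size. The 2 rows of miR-181a-5p were split 50.0%, 50.2% and 50.1% to the chromosome 1 copy. The Wilson 95% interval held 50% in each replicate, but it treats each count as a separate read. As this arm has 1 sequence in both hairpins, the split of its rows does not show which copy the reads came from.

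For miR-181b the 2 rows of the 5p arm and the rest of the hairpin were split in opposite directions. The 5p arm has 1 sequence in both hairpins, so its rows alone do not show which copy the reads came from. The 2 rows of miR-181b-5p were uneven toward chromosome 9, with 53.1%, 54.8% and 55.1% on hsa-mir-181b-2, and no Wilson 95% interval held 50%. Outside the 5p rows hsa-mir-181b-1 had 403, 629 and 879 counts and hsa-mir-181b-2 had 59, 86 and 80, so 87.2%, 88.0% and 91.7% lay on chromosome 1. Among the 26 names with 2 rows and at least 1000 counts, the higher row held a median of 50.5% and a range of 50.0% to 65.2%. miR-181b-5p was the fifth most uneven of these and miR-181a-5p was at place 22.

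**Figure D3:**
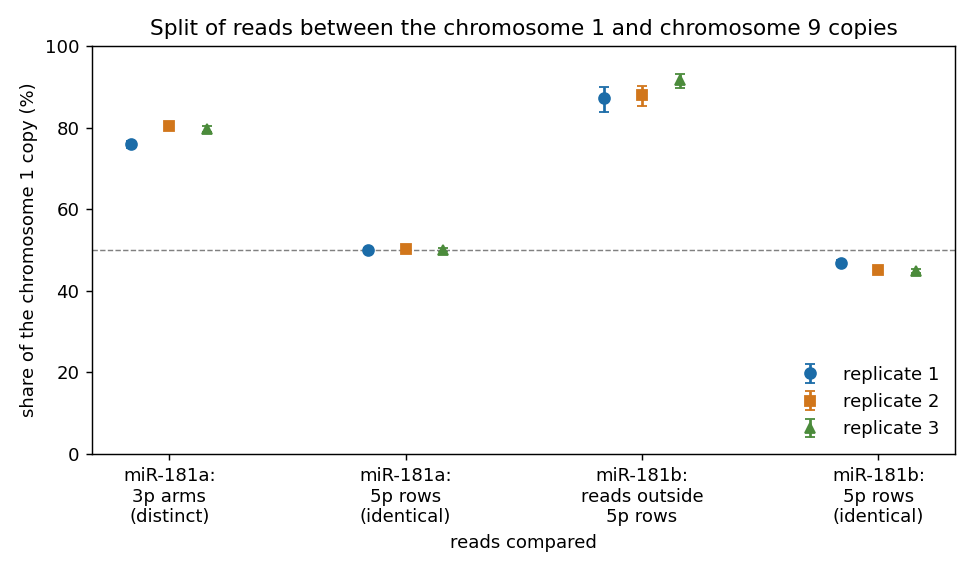
Share of the chromosome 1 copy in reads of miR-181a and miR-181b, in percent, with 1 point per replicate and bars for the Wilson 95% interval. Arms that differ between copies lie at 75.9% to 80.4% for miR-181a, the rows of the identical 5p arms lie at 50.0% to 50.2% for miR-181a and 44.9% to 46.9% for miR-181b, and the dashed line marks an even split.

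The arm used differed between miR-181a, miR-181b and miR-181c, with the copies of each summed. For miR-181a the 5p arm exceeded the summed 3p arms by a log2 ratio of 2.40 ± 0.19 (SE, n = 3; adjusted p = 1.01e-04). For miR-181b the ratio was 5.34 ± 0.24 (adjusted p = 1.16e-05). For miR-181c it was -2.10 ± 0.31 (adjusted p = 0.00143), so the 3p arm was the higher, 4.28-fold in the fit. All are from edgeR's quasi-likelihood test over all pairs, and all 3 miR-181 pairs were called. Of all arm pairs 81.8% were called (171 of 209), 40.7% toward 5p and 41.1% toward 3p, so a call is the usual state of a pair. The ratios of miR-181a and miR-181b also sum 2 rows of the 5p arm, and with the rows averaged they were 1.40 and 4.34, both still called. Against miR-181a-3p alone, the arm that shares its exact name, the ratio of miR-181a-5p was 2.74. The 3p side of the miR-181b pair was miR-181b-3p alone, from hsa-mir-181b-1, as miR-181b-2-3p had no row.

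The single replicates kept these directions. The log2 ratio of miR-181a was 2.22, 2.52 and 2.44 in replicates 1, 2 and 3, that of miR-181b 5.51, 5.35 and 5.17, and that of miR-181c -2.08, -2.09 and -2.15. The SD between libraries was 0.154, 0.170 and 0.0362, against a median of 0.528 over all pairs. By rank toward 5p, miR-181b was at 33, miR-181a at 63 and miR-181c at 139 of 209. The median size of the log2 ratio over all pairs was 3.38, so miR-181b was above it and the other two below. The value for miR-181c rests on 9 to 15 counts of the 5p arm per library. Its SE in the fit, 0.31, was larger than its SD between libraries, so that small SD is no measure of precision.

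**Figure D4:**
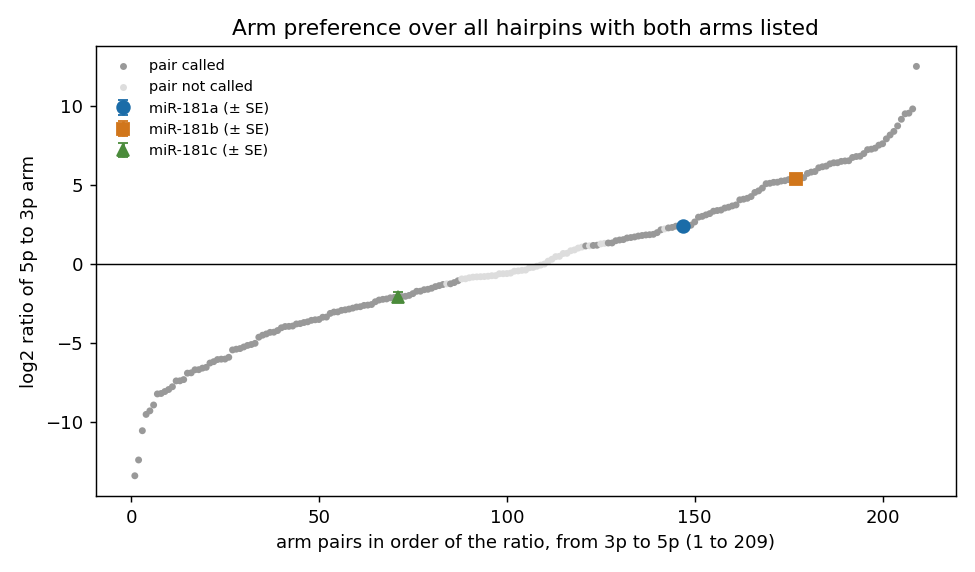
Log2 ratio of the 5p to the 3p arm for the 209 arm pairs, in order, with the copies of 1 miRNA summed. The points of miR-181a, miR-181b and miR-181c are marked with their SE. miR-181b (5.34) and miR-181a (2.40) are on the 5p side of the zero line and miR-181c (-2.10) on the 3p side.

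Set against the 5p row assigned to each hairpin, the a hairpins differed in how many 3p reads they held. For hsa-mir-181a-1 the 3p count was 31.0%, 26.6% and 27.9% of the 5p row, and for hsa-mir-181a-2 it was 9.87%, 6.56% and 7.12%. For hsa-mir-181b-1 it was 4.27%, 4.92% and 5.64%. These percentages take the split of the 5p rows as deposited, with each row assigned to a hairpin by its counts. As the 5p rows of miR-181a were near even, the difference between the a hairpins restates that of their 3p counts. miR-181b-2-3p and miR-181d-3p had no row, and what their hairpins held outside the 5p rows sets a limit of at most 59, 86 and 80 counts for miR-181b-2-3p and 1, 2 and 3 counts for miR-181d-3p.

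Of 14 blood miRNA hairpins chosen as a list, 11 had both arms listed. Of these 5 were called toward 5p, 4 toward 3p and 2 were not called. Over all 209 arm pairs 81.8% were called, 40.7% toward 5p and 41.1% toward 3p. The ends of that list were miR-155 at a log2 ratio of 9.52 and miR-21 at 8.71 toward 5p, and miR-222 at -8.21 and miR-24 at -5.27 toward 3p. All 3 miR-181 ratios lay between these ends.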

How the data were processed

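Small RNA was sequenced from 3 MV4-11 libraries. The authors isolated total RNA on miRNeasy columns, made libraries with a NEB kit, sequenced them on a HiSeq instrument and counted reads over miRBase annotations. The submitters' processing notes name Novoalign 2.08.03, with no role or settings, and a human and a mouse build. The deposited counts are whole reads per mature miRNA or hairpin, not normalized. The deposited FPKM values were computed by the authors from these counts, a length and a library total. Rows listed reached 10 counts in at least 1 library, so miRNAs with no row were given no level. The implied length was 1 base below the RefSeq length for 671 of 679 names.

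Here rows of 1 mature name (55 names had several, of 851 rows) were summed. Rows of a repeated 5p name share that name. For miR-181a-5p and miR-181b-5p each row was assigned to the hairpin whose counts could hold it together with the listed 3p arm. A single assignment met this in every library. Hairpin counts outside the 5p row were taken by subtraction. Arm pairs (209) and copy pairs (8) with a mean of at least 10 counts were fitted together in edgeR 4.0.16 (R 4.3.3) by the quasi-likelihood test, with library and side as terms and total times length as offset. A call needed a Benjamini-Hochberg adjusted p under 0.05 and a log2 ratio of at least 1 in size. The test compares 2 features within the same libraries and is two-sided. SE was the log2 ratio divided by the square root of F. DESeq2 1.42.0 and limma 3.58.1 were alternatives. In simulated data of the same 217 pairs, 29 of 30 pairs changed by a log2 of 1.5 and 30 of 30 changed by 3 were recovered, and 0 of 157 unchanged pairs were called. The simulation used a single dispersion for all pairs, equal expected counts on both sides before the change, and no length offset. Its settings differ from the data, so these are not recovery rates for the real pairs. Shares carry Wilson 95% intervals, which cover counting error only, as reads have no molecular identifiers.

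Members and lists were chosen with earlier results of these data known. All miR-181 rows are named whatever their values. Beside them stand the 3 names nearest to miR-181a-5p by Euclidean distance in log2(FPKM + 1), 3 families as sums, and the 2 lowest and 2 highest of the blood hairpin list.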

Additional observations from a re-analysis of the deposited data

How the results depend on the processing

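Over 22 results, 149 recomputed values were compared with the reported ones. None reversed and no miR-181 pair gained or lost a call. Log2 ratios of pairs were compared by direction and call alone. Of the values with no test, 9 moved by more than 1 SD of the libraries or, for a spread with no SD, by over 1.5 times. Averaging rows of 1 name in place of summing them put the family at 0.530% of mature counts and miR-181a-5p at 54.2% of the family. By construction it also lowered the log2 arm ratio of miR-181a to 1.40 and of miR-181b to 4.34, with both still called. With only arms that share 1 exact name the miR-181a ratio was 2.74. Leaving miR-21-5p out of the total put the family at 1.19%. The chromosome 1 share of the hairpins was 50.4% in FPKM. Of the counts of all listed 3p arms, miR-181a-3p and miR-181b-3p from chromosome 1 held 79.4%. That total includes miR-181c-3p and lacks miR-181b-2-3p, which had no row, and it is not a share of hairpin counts. The median coefficient of variation of the members, 25.7% in CPM, was 15.5% with median-of-ratios scaling and 15.7% with TMM scaling, and it ran from 7.05% without replicate 1 to 33.2% without replicate 2. The seed rank ran from 18 without replicate 1 to 21 without replicate 2 or replicate 3. The cause of these shifts was not tested, beyond the averaging. Calls over all arm pairs ran from 152 to 180 and over copy pairs from 5 to 6. With a mean of at least 100 counts the miR-181c pair dropped out, so it has no value there. Leaving replicates out kept the log2 copy ratio of miR-181a between 1.82 and 2.01. The edgeR and DESeq2 fits of pairs had the library as a term, and limma was fitted to the ratio from each library, so each ratio is within libraries. Depth limits miR-181c-5p most, with 9 to 15 counts per library.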

Other observations

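Reads outside both listed arms were scarce on the family's hairpins that list both arms. hsa-mir-181a-1 had 20, 28 and 22 such counts and hsa-mir-181a-2 had 11, 9 and 14. hsa-mir-181b-1 had 1, 1 and 0, and hsa-mir-181c had none in any library. Over the 183 hairpins with both arms and 1 row each, the median share outside the arms was 0.0457% of the hairpin's counts. The share was 0.0555%, 0.0698% and 0.0543% for hsa-mir-181a-1.

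Other copy pairs were split in different ways. The log2 ratio of miR-24-1-5p to miR-24-2-5p was -7.03 (edgeR adjusted p = 2.04e-05), while the let-7f copies were at -0.12 and not called. The miR-181a copies, at 1.89, had the smallest size of the 5 called.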
